A study of Caenorhabditis elegans with 2 samples.

Results

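The genes described here are 10 core regulators of the cell cycle, taken by name from 19973 protein-coding genes: the cyclin genes cyd-1, cye-1 and cyb-1, the kinase genes cdk-4, cdk-2 and cdk-1, the kinase activator gene cdc-25.1, the inhibitor gene cki-1, the ubiquitin ligase gene cul-1 and the replication gene pcn-1. All 10 were found in the annotation. They were examined in ChIP-seq data for COG-1, which binds DNA through a homeodomain, from whole Caenorhabditis elegans embryos. The worms were OP541 hermaphrodites, which carry the unc-119(tm4063) mutation on chromosome III and the integrated array wgIs541, whose COG-1 protein ends in a GFP-FLAG tag. Mid-embryos were taken 3 h after egg bleaching, and both libraries, biological replicates 1 and 2, belong to this 1 group. The labels used here do not name the promoter of the transgene, and a strong signal in few cells and a weak one in many cannot be told apart in whole embryos.

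Cyclins are regulatory subunits that switch on cyclin-dependent kinases (CDKs). Cyclin D with CDK-4 starts the passage towards DNA replication, cyclin E with CDK-2 carries cells into S phase, and cyclin B with CDK-1 drives mitosis. CDC25 phosphatases remove inhibitory phosphates from these kinases, inhibitors of the Cip/Kip class block them, and SCF complexes built on a cullin mark cell cycle proteins for destruction. PCNA is the sliding clamp that holds DNA polymerases on the template. In worm embryos these proteins time fast divisions, many of which differ between lineages, and cells leave the cycle as they differentiate.

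Sequences are shown for 4 regions upstream of members, each as the 101 bases centred on the summit (the position of highest signal in a region). Those of cdk-4 and pcn-1 are peaks in the start window (1000 bp upstream to 500 bp downstream of the gene start), that of cki-1 is a peak farther upstream, and that of cdk-1 is a weaker region close to the start. All are plus-strand sequence of ce11 from the RefSeq copy of the assembly, and none overlaps an annotated exon. Capitals mark matches to the short sequences searched, which are described further on.
cdk-4 (chrX:13519257-13519357): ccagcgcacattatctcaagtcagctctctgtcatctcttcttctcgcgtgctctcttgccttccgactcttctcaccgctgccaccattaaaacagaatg
pcn-1 (chrIV:4049738-4049838): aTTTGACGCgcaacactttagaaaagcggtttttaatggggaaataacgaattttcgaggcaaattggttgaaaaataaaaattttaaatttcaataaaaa
cki-1 (chrII:7809459-7809559): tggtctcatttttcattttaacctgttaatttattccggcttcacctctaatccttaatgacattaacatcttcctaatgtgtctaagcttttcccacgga
cdk-1 (chrIII:9747317-9747417): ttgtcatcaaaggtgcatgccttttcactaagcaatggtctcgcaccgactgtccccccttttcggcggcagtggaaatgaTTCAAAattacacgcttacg
The first 3 are peaks of the list thresholded by the irreproducible discovery rate (IDR), and the last is not in that list. The genes cdk-4 and pcn-1 are transcribed from the minus strand, so their promoters read towards the left here.

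A peak of the IDR list lay in the start window of 3 of the 10 genes, cye-1, cdk-4 and pcn-1. That is 30% (exact 95% interval 6.67 to 65.2), against 6.82% of all protein-coding genes. No set test was made, and with 10 genes the interval is wide. The count depended on how a peak was given to a gene. The peaks at cye-1 and cdk-4 lay nearer to the start of a neighbour. When only the closest start received a peak, pcn-1 was the 1 member of 10 with one, against 5.03% of all protein-coding genes. The IDR list held 1841 peaks, which were the 1841 regions of highest signal among 22583 in the pooled list, with signals from 77.7 to 769. Rank is therefore by the same value that made the list.

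**Figure D1:**
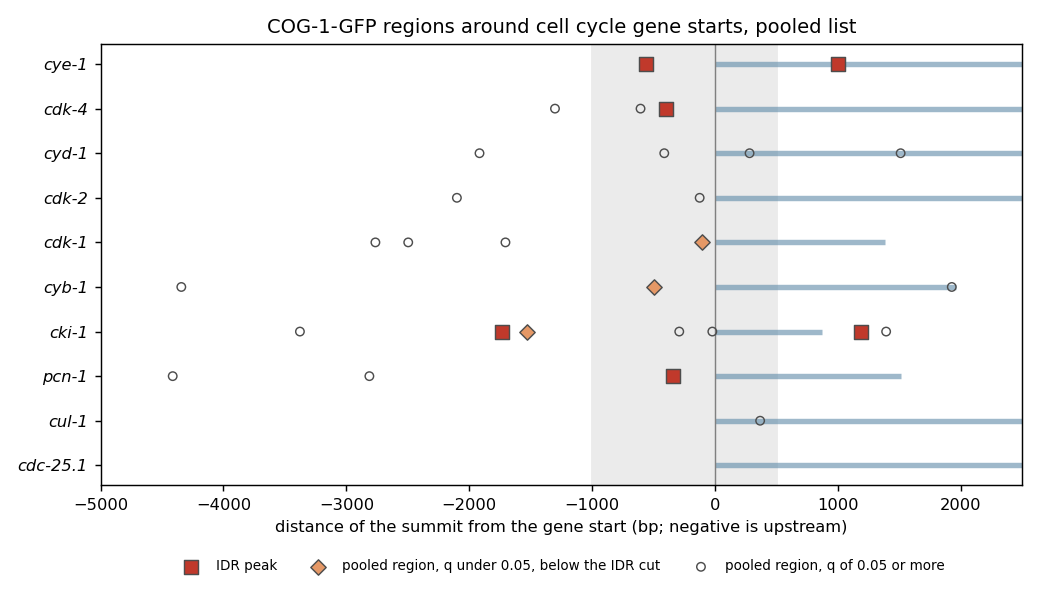
Summits of the pooled list around the starts of the 10 genes, by distance from the start in bp; squares are IDR peaks, diamonds are regions with a q-value under 0.05 below the IDR list, circles are other regions, the shaded band is the start window and bars are gene bodies. Peaks of cye-1, cdk-4 and pcn-1 sit 340 to 565 bp upstream, cki-1 has one 1731 bp upstream, and cdc-25.1 has none.

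The cyclin E gene cye-1 (WBGene00000871, I, 6780799 to 6784397, plus strand) had the strongest start-window peak of the 10. Its summit lay 565 bp upstream of the start (I, 6780234, between genes), with a signal of 140 and rank 538. Replicate 1 had a region 527 bp upstream with a signal of 53.5 (rank 762 of 21617), and replicate 2 had one 624 bp upstream with a signal of 87.3 (rank 450 of 20247). The gap of 647 bp upstream of cye-1 separates it from pqn-21, which is transcribed the other way, and the summit was 83 bp from the pqn-21 start. Another and stronger IDR peak lay inside cye-1, 1002 bp past the start, with a signal of 220 and rank 155. It had a signal of 97.3 in replicate 1 and 121 in replicate 2. That summit fell in an intron of cye-1, 2 bp from the tRNA gene WBGene00022955 (I, 6781803 to 6781874), so the tRNA gene and the cyclin gene cannot be told apart as its site.

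The cdk-4 gene (WBGene00000406, X, 13515856 to 13518911, minus strand), which encodes the partner kinase of cyclin D, had its peak 396 bp upstream (X, summit at 13519307), with a signal of 128 and rank 665. The signal was 63.5 in replicate 1 (rank 510) and 64 in replicate 2 (rank 940), with summits 393 and 406 bp upstream. The peak stood in a gap of 751 bp before F18H3.1, which is transcribed away from cdk-4 and whose start was 356 bp from the summit. A weaker region 607 bp upstream ranked 9793 in the pooled list.

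The PCNA gene pcn-1 (WBGene00003955, IV, 4047937 to 4049448, minus strand) was the member whose peak could be given to 1 start only. Its summit lay 340 bp upstream (IV, 4049788), with a signal of 113 and rank 884. Signals were 54.3 in replicate 1 (rank 736) and 55 in replicate 2 (rank 1271), with summits 336 and 340 bp upstream. The gap of 557 bp lies between pcn-1 and the end of wrt-5, which is on the same strand, so no other protein-coding start was in reach. Of the members' strongest start-window regions, that of pcn-1 was the last inside the IDR list and that of cdk-1, with a signal of 62.4, the first outside it.

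The gene cki-1 (WBGene00000516, II, 7811240 to 7812105, plus strand) encodes a CDK inhibitor of the Cip/Kip class, which holds cells out of the cycle. It was the 1 member of 10 with an IDR peak between 1000 bp and 5 kb upstream, against 7.89% of all protein-coding genes. The summit was 1731 bp upstream (II, 7809509), with a signal of 185 and rank 264, the highest rank of any peak upstream of a member. Signals were 71.4 in replicate 1 (rank 372) and 114 in replicate 2 (rank 228), with summits 1754 and 1726 bp upstream. The nearest protein-coding gene on that side, glr-4, is transcribed the other way and lay 16917 bp from the cki-1 start, and the summit was 306 bp from the start of the non-coding RNA gene T05A6.15. A shoulder 1532 bp upstream had a signal of 60.1 and a q-value under 0.05.

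A further 2 IDR peaks lay on the other side of cki-1, in the 4393 bp between it and cki-2, which encodes another inhibitor of the same class. One was 319 bp past the end of cki-1 (signal 98.2, rank 1190), 4075 bp upstream of cki-2. The other was 2361 bp past the end of cki-1 (signal 118, rank 798), 2033 bp upstream of cki-2. Starts of non-coding RNA genes lay near both, those of T05A6.17 at 179 bp and T05A6.18 at 423 bp from the rank 1190 summit and that of T05A6.11 at 337 bp from the rank 798 summit. The stretch from glr-4 to cki-2 thus held 3 IDR peaks, none of which was in the start window of either inhibitor gene.

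Inside the cki-1 start window itself only weak regions were listed in the pooled reads, and the replicates differed there. The pooled list had 1 region 292 bp upstream (signal 37.4, rank 7773) and 1 at 23 bp upstream (signal 37.2, rank 7861). Replicate 2 had a region 21 bp upstream with a signal of 40.3 (rank 2308, −log10 q of 2.55), whereas the strongest window region of replicate 1 lay 253 bp inside the gene with a signal of 19.2 (rank 10228, −log10 q of 0.12).

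The mitotic genes cdk-1 and cyb-1 had weaker regions that did not reach the IDR list. For cdk-1 (WBGene00000405), which encodes the mitotic kinase, the pooled region lay 105 bp upstream (III, 9747367) with a signal of 62.4, rank 2710 and a −log10 q of 1.55. Replicate 2 listed a region 142 bp upstream with a signal of 46.7 (rank 1739), and the replicate 1 list had none in this window. The summit lay in the 278 bp between cdk-1 and the divergent gene iff-1. For cyb-1 (WBGene00000865), which encodes cyclin B, the pooled region lay 498 bp upstream (IV, 10734718) with a signal of 60.8, rank 2829 and a −log10 q of 1.43. Here replicate 1 had the higher rank, 1459 with a listed signal of 40.1, against rank 7943 and a signal of 21.8 in replicate 2. The cyb-1 region lay in the 627 bp that separate it from orc-5, a gene of the origin recognition complex that is transcribed the other way.

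With regions of the pooled list at a q-value under 0.05, the count of members was 5 of 10, cye-1, cdk-4, pcn-1, cdk-1 and cyb-1, against 10.4% of all protein-coding genes. In the lists of single replicates, 4 of 10 members had such a region in replicate 1, against 7.03% of all genes, and 5 of 10 in replicate 2, against 11.4%. In both it was cye-1, cdk-4 and pcn-1. To these replicate 1 added cyb-1 alone, and replicate 2 added cdk-1 and cki-1. The 3 genes with an IDR peak in the window were thus the members found at this threshold in each replicate. The IDR list was made from these same replicates, so the match is not independent of it.

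**Figure D2:**
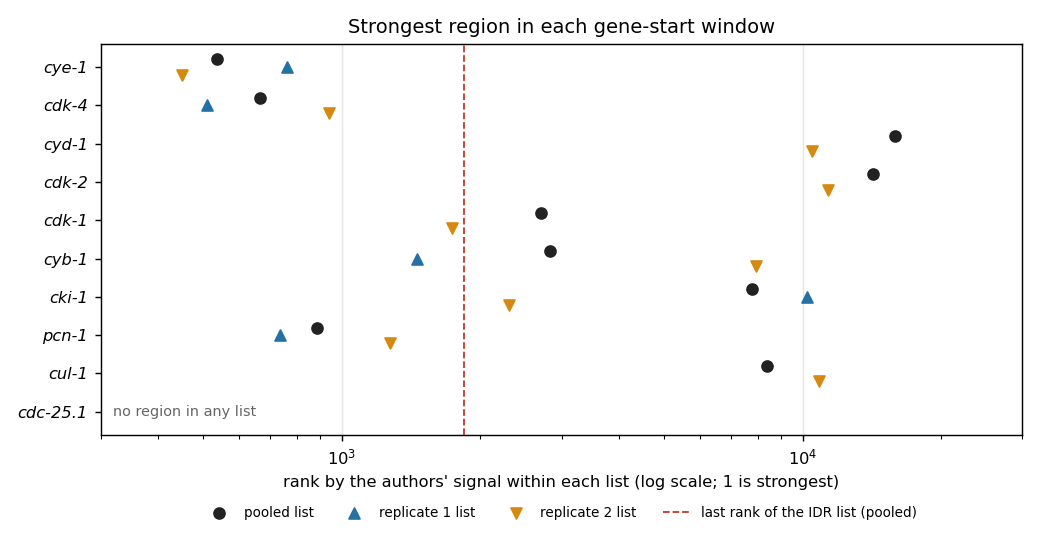
Rank of the strongest region in each start window in the pooled, replicate 1 and replicate 2 lists, on a log axis where 1 is the strongest; lists hold 22583, 21617 and 20247 regions, and the dashed line is the last rank of the IDR list, 1841. All 3 marks of cye-1, cdk-4 and pcn-1 lie left of the line; for cdk-1 only replicate 2 and for cyb-1 only replicate 1 does.

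The other 4 members, cyd-1, cdk-2, cul-1 and cdc-25.1, had no region at a q-value under 0.05 in the pooled list between 5 kb upstream and 500 bp downstream. The cyclin D gene cyd-1 (WBGene00000870) had 2 window regions, the stronger 414 bp upstream with a signal of 27.6 (rank 15898), and its replicate 1 list had none in the window. The cyclin E partner kinase gene cdk-2 (WBGene00019362) had 1, at 126 bp upstream, with a signal of 29 (rank 14193), also with none in replicate 1. The cullin gene cul-1 (WBGene00000836) had 1, at 366 bp inside the gene in a coding exon, with a signal of 36.2 (rank 8363), and again none in replicate 1. For the phosphatase gene cdc-25.1 (WBGene00000386), no list held a region from 5 kb upstream to 500 bp downstream, as for 18.3% of all protein-coding genes. The IDR list did hold a peak inside cyd-1, 5314 bp past its start, near the end of the list at rank 1821 with a signal of 78.3. For the other 3 the nearest IDR summit lay outside the gene, 59920 bp from the start of cdk-2, 9896 bp from that of cul-1 and 11176 bp from that of cdc-25.1.

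The relaxed lists, which also hold background, covered 9 of the 10 windows in the pooled reads, 5 of 10 in replicate 1 and 9 of 10 in replicate 2. The shares of all protein-coding genes were 36.1%, 35.2% and 34.2%. The members cyd-1, cdk-2, cdk-1 and cul-1 had a window region in replicate 2 and none in replicate 1. The strongest of these had a −log10 q of 0.19 at cyd-1, 0.15 at cdk-2, 0.17 at cul-1 and 3.06 at cdk-1. The share of all genes with a region in replicate 2 alone is not given here, so this says nothing particular about the members.

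The balance of the listed replicate signals differed among the members' IDR peaks. How these signals scale with depth was not given, so a share does not compare binding between the replicates. Replicate 2 gave 62% of the summed replicate signal at the upstream peak of cye-1, 61.4% at the upstream peak of cki-1, 50.2% at cdk-4 and 50.3% at pcn-1. Its share was 55.5% at the peak inside cye-1, and 55.3% and 48.7% at the peaks 319 and 2361 bp past the end of cki-1. Over the 1833 IDR peaks found in both replicate lists, its median share was 56.7% with quartiles of 51.4 and 62. The shares at cdk-4, at pcn-1 and at the cki-1 peak 2361 bp past the gene end were under the lower quartile, and that of the upstream peak of cye-1 was at the upper one.

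**Figure D3:**
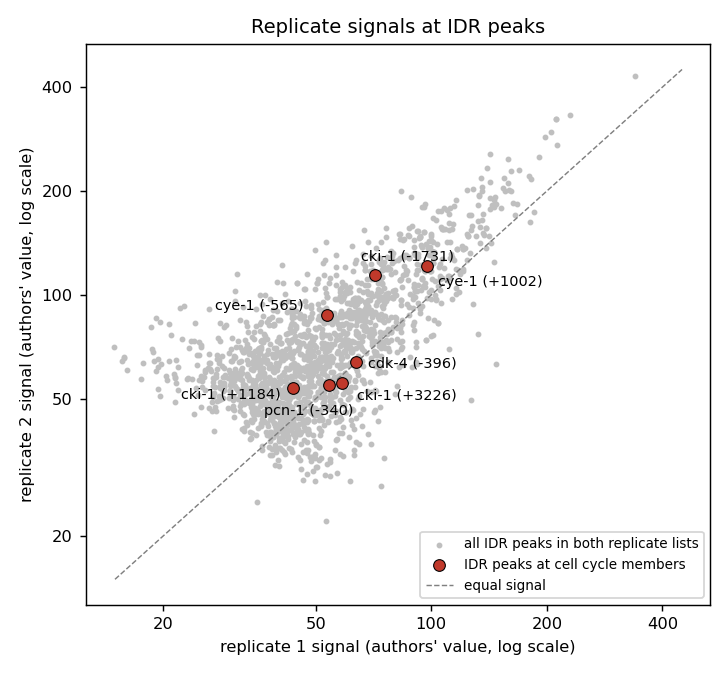
The authors' signal in replicate 1 and replicate 2 at each IDR peak, on log axes; grey points are peaks found in both replicate lists and red points are the peaks at cye-1, cdk-4, cki-1 and pcn-1, with the distance from the gene start in bp. The points of cdk-4 and pcn-1 lie on the line of equal signal, those of cye-1 and of the cki-1 peak 1731 bp upstream lie above it, and the cki-1 peak at 3226 bp lies just below it.

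The 3 start-window peaks had in common that the summit lay upstream and between genes. Among 1362 protein-coding genes with an IDR peak in the window, the strongest summit was upstream of the start in 93.6%, at a median of 269 bp with quartiles of 160 and 442.5 bp. The distances of 340 bp at pcn-1 and 396 bp at cdk-4 were within these quartiles, and the 565 bp at cye-1 was beyond them. Of the 3 members, 2, cye-1 and cdk-4, shared their peak with the start window of another gene, as did 52.3% of all genes with a peak.

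In base composition the peaks were unlike each other. Within 50 bp of the summit, G and C made up 56.4% of bases at the upstream peak of cye-1 and 50.5% at cdk-4, but 27.7% at pcn-1 and 35.6% at the upstream peak of cki-1. The median over all 1841 IDR peaks was 47.5%, with quartiles of 43.6 and 52.5. Only 1.9% of IDR peaks were as low as pcn-1, and 90.5% were at or below cye-1. The low value can be read in the pcn-1 sequence above, whose last bases are nearly all a and t.

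Of the 5 short sequences searched, 4 were found at 1 or 2 of the 10 member regions each and 1 at none. These regions belong to cye-1, cdk-4, cdk-1, cyb-1, cki-1 and pcn-1, and the other members were not searched. Those of cdk-1, cyb-1 and the cki-1 shoulder are not IDR peaks, while the shares given beside them are of IDR peaks. On both strands within 50 bp of the summit, TAATTA, a core of sites bound by homeodomain proteins, occurred at 1 of 10 member regions searched, the rank 798 peak past the end of cki-1, and in 2.66% of all IDR peaks. TTTNNCGC, which covers sites of the cell cycle factor E2F, occurred at the upstream peak of cye-1 and at that of pcn-1, and in 8.42% of all IDR peaks. In the pcn-1 sequence it is the run of capitals. TTTGAA, the cell cycle homology region, occurred at cdk-1, where the plus strand reads TTCAAA, at the rank 1190 peak past the end of cki-1, and in 13.5% of all IDR peaks. GAGAGA occurred at the upstream peak of cye-1 and in 28.9% of all IDR peaks, and CACGTG at no member region searched and in 2.72%. None of these patterns contains another. A match says only that the letters are there, and a missing match only that they are not in this window.

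The wider set of cell cycle genes was taken from lists in 9 roles, of which 113 of 115 symbols were found in the annotation. An IDR peak lay in the start window of 24 of the 113 (21.2%, exact 95% interval 14.1 to 29.9), and of 21 of the 103 that are not among the 10 members (20.4%), against 6.82% of all protein-coding genes. The rank 31 peak of lin-35, which encodes the worm retinoblastoma protein, was the strongest of them, with a signal of 334 and a summit 243 bp upstream of its start and 175 bp upstream of vps-51. When only the closest start received a peak, 17 of the 113 held one, against 5.03% of all genes.

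Genes of the replication fork and S phase, the longest list, had peaks most often in number, at 8 of 27 (29.6%). By share the DNA damage checkpoint genes were higher, at 3 of 8 (37.5%). The share of all protein-coding genes was 6.82%. Besides pcn-1, the replication fork genes with a peak included rfc-4, a subunit of the clamp loader that opens the PCNA ring (rank 238, signal 191, 157 bp upstream). Another was ctf-4, a replisome adaptor gene (rank 243, signal 190, 154 bp upstream). The rfc-4 summit was also 384 bp from the start of eef-1A.1, and the ctf-4 summit was 26 bp from that of eef-1G. The gene mcm-10, for a helicase factor, had 2 listed peaks that overlap each other, and the same region of each replicate list held both summits. The stronger ranked 265 (signal 185, 305 bp upstream, in an intron of teg-1). The polymerase alpha gene pola-1 ranked 577, the Timeless homologue tim-1 728, the GINS subunit gene psf-2 1009 and the primase gene pri-2 1026. Each of these peaks also lay in the start window of another gene. Origin licensing genes had peaks at 1 of 15, namely cdc-6 (rank 1056, signal 104), at 6.67% close to the share of all genes. The cdc-6 summit was 245 bp upstream of its start and nearer, at 134 bp, to the start of acin-1. With pooled regions at a q-value under 0.05 the counts were 4 of 15 for licensing and 10 of 27 for replication fork genes, against 10.4% of all genes. The difference between the roles was not tested.

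Among CDKs and their regulators 4 of 16 (25%) had a peak, against 6.82% of all protein-coding genes. Besides cdk-4 these were cdk-7, the CDK-activating kinase (rank 199, signal 204, 22 bp upstream), wee-1.3, an inhibitory kinase (rank 372, signal 162, 338 bp upstream), and the phosphatase gene cdc-14, with 2 peaks (the stronger at rank 724, signal 123). None of the kinase genes cdk-1 and cdk-2, the inhibitor genes cki-1 and cki-2 or the 4 cdc-25 genes was among them. Among 8 cyclin genes cye-1 was the only one (12.5%). Cullin and SCF genes had 3 of 12 (25%). The ubiquitin-conjugating enzyme gene ubc-3 was at rank 536 (signal 140) and the F-box gene lin-23 at rank 784 (signal 119). The third was sel-10, at rank 1701, and cul-1 was not among them. DNA damage checkpoint genes had 3 of 8 (37.5%), led by clsp-1 (rank 550). That summit was 288 bp upstream of clsp-1 but only 23 bp from the start of eef-2, inside its 5' UTR. The mitotic kinase and spindle checkpoint list had 2 of 9 (22.2%), bub-1 (rank 645) and ify-1, the securin gene (rank 649). The bub-1 summit was also 344 bp from the lin-61 start, and the ify-1 summit 280 bp from the rpl-22 start. The anaphase-promoting complex had 1 of 14 (7.14%), close to the share of all genes. This was emb-1 (rank 584), with the summit 738 bp upstream of emb-1 and 19 bp from the start of K10D2.5. The Rb and E2F list had 1 of 4 (25%), lin-35.

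**Figure D4:**
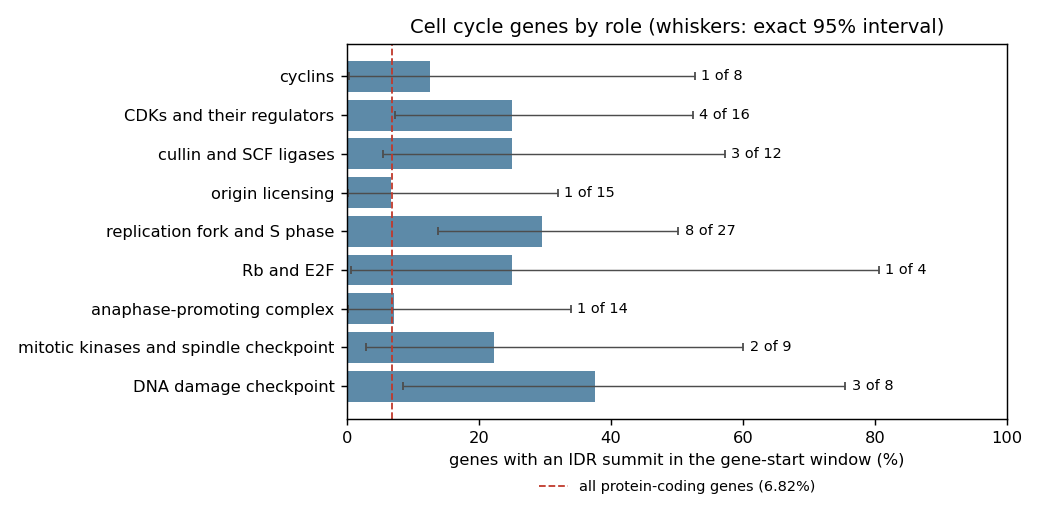
Share of genes with an IDR summit in the start window, in percent, by role; bars give the share, whiskers its exact 95% interval, and the dashed line is the 6.82% of all protein-coding genes. The intervals are wide because lists hold 4 to 27 genes. They cover counting error only, the lists were chosen with earlier results of these data known, and no role was tested against the line.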

How the data were processed

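Chromatin immunoprecipitation with sequencing (ChIP-seq) was done on 2 biological replicates of 1 group, so no conditions could be compared and no test between groups was made. Per the labels, sonicated chromatin was precipitated with an antibody against GFP. Per the deposited file listing, relaxed lists of regions were made from each replicate's alignments and from the pooled alignments with a control file, and the irreproducible discovery rate (IDR) was applied to them to give a shorter list of peaks. The sources used here name no aligner, peak caller or IDR threshold, and read depth and the control were not analysed here. The deposited lists hold a signal value per region, whose scaling to depth was not given, and a q-value on the −log10 scale. Both are the authors' values and were used to describe, rank or filter regions within a list. Signals of the replicate and pooled lists were also set side by side as listed.

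Summits of the 4 lists in ce11 were assigned to starts of 19973 protein-coding genes of Ensembl release 115 (WBcel235, the same sequence as ce11), with each gene's outermost start. None of the lists ran past a chromosome end (0 regions in each). A start window ran from 1000 bp upstream to 500 bp downstream, and the assignment was checked on 200 placed starts with known offsets. Sequences were read from the RefSeq copy of WBcel235. Python 3.11.15, pandas 2.3.3, numpy 2.4.6, scipy 1.17.1 and matplotlib 3.10.9 were used. The genes, the lists by role and the short sequences searched were chosen with earlier results of these data known. Genes named are all 10 members, the 20 cell cycle genes with the highest-ranked peaks, protein-coding genes whose start window holds a member's peak and non-coding genes whose start lies within 500 bp of a member's summit; others were chosen after their values were seen, and cdc-45 and pold-1 were not matched in the annotation. Exact 95% intervals of shares are Clopper-Pearson intervals and cover counting error only. Alternatives covered the window, the set of peaks, the way a peak is given to a gene, the annotated start, peaks near tRNA genes and each replicate alone. The ce10 lists were compared by number of peaks only.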

Additional observations from a re-analysis of the deposited data

How the results depend on the processing

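Of the 10 members, 3 held an IDR peak in the start window, and the count was from 2 to 4 with other windows (2 without cye-1 at 500 bp upstream to 250 bp downstream, 4 with cki-1 at 2000 bp upstream). It was 3 in the stronger 920 peaks, with any overlap, with any transcript start and without peaks near tRNA genes. It was 5 with pooled regions at a q-value under 0.05 and 1 with the nearest start alone. Without replicate 1 it was 4, with cdk-1 added, and without replicate 2 it was 4, with cyb-1 added. Of all protein-coding genes, 5.41% held a peak with the narrower window, 9.01% with the wider one and 5.03% with the nearest start alone. That share was 6.75% without replicate 1 and 6.49% without replicate 2. The setting without replicate 1 was narrower than a q-value under 0.05, at which replicate 2 gave 5 of 10, with cki-1 as well. The pooled q-value setting gave 40 of 113 cell cycle genes, and 2074 of 19973 protein-coding genes against 1362 with the IDR list. The stronger 920 peaks gave 701 protein-coding genes and 18 cell cycle genes. Under the other settings the cell cycle count lay between 17 and 29. A wider window or a longer list adds genes by construction; for the replicates left out in turn the cause was not tested. The ce10 list had 1834 IDR peaks and 1841 were listed in ce11. Read depth, an input library and an untagged strain were not analysed here, so a missing peak does not show that COG-1 was absent. No paired analysis was possible because both replicates belong to 1 group.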

Other observations

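Of the cell cycle genes with an IDR peak, 15 of 24 (62.5%) shared it with another start window, against 52.3% of all genes with a peak, and the difference was not tested. Of the 3 members with a peak in the window, cye-1 shared it with pqn-21 and cdk-4 with F18H3.1.

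The pooled signal was close to the sum of the signals of both replicates. Over 1833 IDR peaks the ratio of the pooled signal to that sum had quartiles of 0.98 and 1.02, and it was 0.997 at the upstream peak of cye-1 and 1.03 at pcn-1. At cdk-1 replicate 2 had a signal of 46.7, replicate 1 had no listed region in the start window and the pooled signal was 62.4.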
